A study of Homo sapiens with 12 samples.

Results

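The comparison set 3 RNA-seq libraries of EVI1-overexpressing human leukaemia cells, labelled MOLM14, against 3 libraries of control cells of the same label, whose treatment is given as wild type. Gene levels came as FPKM, fragments scaled to transcript length and to the fragments of the library. Gene names could be used for these columns in 5510 of the table's 58191 rows, those before the first identifier for a chromosome Y copy of a pseudoautosomal gene, and 3768 of those 5510 genes reached 1 FPKM in at least 3 of the 6 libraries and were tested. The other 1742 lay below that filter, and genes beyond the 5510 were not analysed here. The 12 libraries of the series also include 3 of K562 with EVI1 and 3 of K562 control, which were used to ask where the EVI1 effect differed.

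EVI1 overexpression is the only treatment the labels name, and no drug, dose or time is given. The labels do not say which vector or promoter drove EVI1, whether the cells were clones or pools, or whether the replicates were separate cultures, so that every p-value measures the spread between these samples alone. The extraction text of the labels speaks of mouse intestine, while organism and source are given as human and as the line. The title of the series asks about venetoclax, an inhibitor of BCL2, and capivasertib, an inhibitor of the AKT kinases, in acute myeloid leukaemia.

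EVI1 is a nuclear protein with a pair of zinc finger domains that bind DNA, of which the first prefers sites resembling GATA motifs. It is made from the MECOM gene, keeps blood stem cells in place, and is switched on by rearrangements of chromosome band 3q26 in a group of acute myeloid leukaemias with poor outcome. It is known to interact with the haematopoietic factors GATA1 and PU.1 and with histone deacetylases and methyltransferases. MOLM14 is known as a monocytic leukaemia line with a KMT2A fusion and a FLT3 internal tandem duplication, and K562 as an erythroid and megakaryocytic line that carries BCR-ABL1.

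Most of the marker genes went against the line label. FLT3, the receptor kinase that is mutated in MOLM14, was listed at 0 in 5 of the 6 libraries labelled MOLM14 and at 0.00915 FPKM in EVI1 replicate 3. The homeobox genes HOXA9, HOXA7 and HOXA5, which KMT2A fusions keep on, did not exceed 0.0245 FPKM, and the granule genes MPO and CTSG stood below 0.1 FPKM. In all, 14 of the 21 usable MOLM14 markers lay below the filter, and their summed level ran from 173.6 to 187.5 FPKM in EVI1 libraries and from 244.6 to 274.7 FPKM in control libraries, carried by PTPRC, LYZ, SPI1, CD33, KMT2A and TYROBP. All 7 usable K562 markers passed the filter, and summed to 997.9 to 1045 FPKM in EVI1 libraries and 825.0 to 866.4 FPKM in control libraries. GATA1, the master factor of erythroid cells, stood at 141, 149.6 and 145 FPKM in EVI1 libraries and at 107, 123 and 109 FPKM in control libraries, and the red cell protein RHAG at 298, 306 and 291 FPKM and 362, 368 and 348 FPKM. Beside these, the myeloid genes LYZ, CD33, SPI1 and TYROBP were present in all 6 libraries. They were also present in the K562 control libraries, so their presence is not particular to the MOLM14 label. There SPI1 stood at 27.9, 31.8 and 26.8 FPKM and CD33 at 25.1, 24.6 and 24.3 FPKM. LYZ at 23.1, 20.3 and 22.01 FPKM and TYROBP at 3.83, 2.96 and 3.89 FPKM lay below every library labelled MOLM14. So did PTPRC, at 6.90, 7.34 and 7.32 FPKM in K562 control. Under the MOLM14 label it stood at 61.6, 78.1 and 69.1 FPKM with EVI1 and at 59.9, 43.1 and 34.1 FPKM in control. The 14 usable T and NK cell markers all lay below the filter. They summed to 1.012 to 1.731 FPKM in EVI1 and 1.51 to 1.69 FPKM in control libraries labelled MOLM14.

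**Figure D1:**
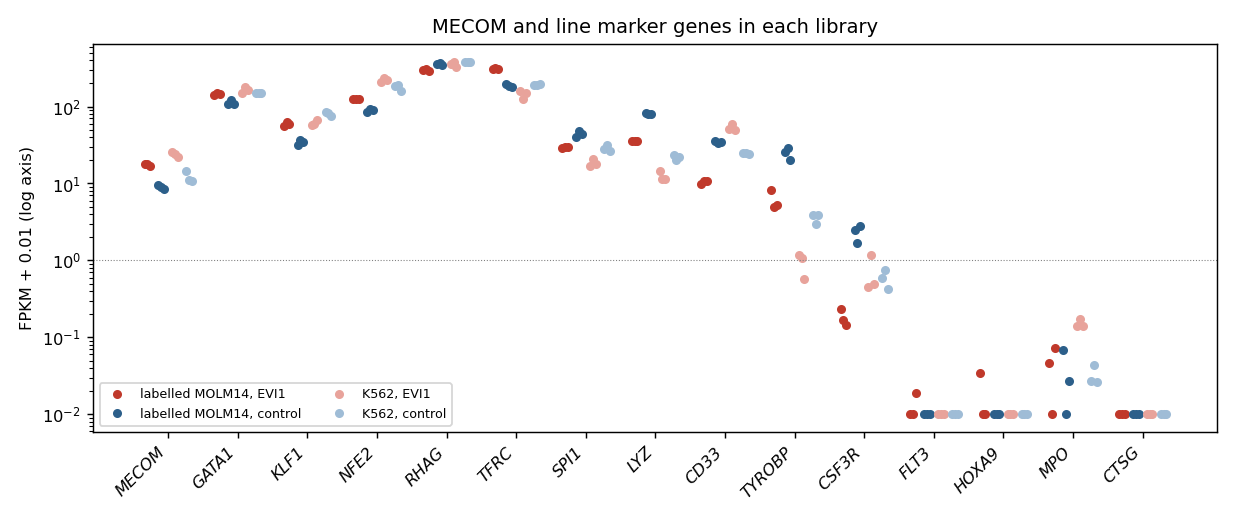
Each point is the FPKM of 1 library plus 0.01, on a log axis, for MECOM and 14 line markers in the libraries labelled MOLM14 with EVI1 (red) and control (blue) and in K562 with EVI1 (pale red) and control (pale blue), and the dotted line marks 1 FPKM. Erythroid genes such as GATA1 and RHAG stood above 100 FPKM under both labels, while FLT3, HOXA9, MPO and CTSG lay at or near 0 in all 12 libraries.

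Across the 5510 genes, Pearson r on the log2(FPKM + 1) scale between an EVI1 library and a control library labelled MOLM14 was 0.9817 to 0.9828. EVI1 libraries labelled MOLM14 correlated with K562 control libraries at 0.9819 to 0.9872, and control libraries labelled MOLM14 with K562 control libraries at 0.9658 to 0.9772. Replicates within a group correlated at 0.9970 to 0.9976. These are correlations across genes, which are not independent, and they give no origin for the cells. The libraries are called by their label throughout, and since the columns of the 2 labels fall out of step after row 5510, levels are set side by side across labels with no test. FPKM summed to 616768 to 630579 per EVI1 library and 599102 to 625098 per control library of the MOLM14 label, their read depth is unknown, and the first principal component held 84.28% of the variance and separated EVI1 from control.

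MECOM, the overexpressed gene, was higher in all 3 EVI1 libraries. It stood at 17.8, 18.04 and 16.9 FPKM with EVI1 and at 9.66, 9.02 and 8.55 FPKM in control, so that the lowest EVI1 library lay above the highest control. The means of 17.6 ± 0.617 and 9.08 ± 0.562 FPKM (SD, n = 3 each) gave a ratio of 1.94 and a log2 fold change of 0.88 (SE 0.07, limma adjusted p = 6.47e-05). An exact two-sided permutation test gave p = 0.1, the smallest that 3 libraries against 3 allow. Fold changes are EVI1 minus control on the scale of log2(FPKM + 1), which understates the change of low genes, and a gene is said to rise or fall when its Benjamini-Hochberg adjusted p in the limma fit was under 0.05. The row spans the whole gene on chromosome 3 from 169083499 to 169663618 (GRCh38), so transcripts of the resident gene and of an introduced one are not told apart. The control libraries already held MECOM above the filter.

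Of the known partners of EVI1 in the usable rows, the haematopoietic transcription factors moved in opposite directions. GATA1 rose (log2 fold change 0.37, limma adjusted p = 0.00212). SPI1, which encodes the myeloid factor PU.1, stood at 28.9, 30.2 and 30.1 FPKM in EVI1 and 40.4, 48.3 and 44.0 FPKM in control libraries and fell by 0.55 (limma adjusted p = 0.000587). The groups overlapped for neither gene. The methyltransferase gene SUV39H1 was not called (-0.13, limma adjusted p = 0.181), nor was the deacetylase gene HDAC1 (0.21, limma adjusted p = 0.0871), although HDAC1 passed the threshold without EVI1 replicate 1 (0.30, limma adjusted p = 0.0264). CEBPE, a factor of granulocyte maturation, lay below the filter. The RefSeq promoter windows (250 bases before to 50 after each gene's start, GRCh38.p14) of 3149 tested genes were searched on both strands for GATAAG, a core of the sites bound by the first finger domain, and for GAAGATGAG, a core of those bound by the second. GATAAG was found in 3.69% of the 976 windows of genes that rose and in 4.16% of the 817 windows of genes that fell, against 3.97% of all tested genes and 6.36% of all 27305 windows. GAAGATGAG occurred in 2 windows of genes that rose and 1 of genes that fell. A match is a description of letters in the window and shows no binding.

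Most tested genes differed between the groups. Of the 3768 genes, 2158 were called (57.3%): 1146 rose (30.4%) and 1012 fell (26.9%). Over all 13315 rows that passed the filter, named or not, 7212 were called (54.2%), with 3644 higher and 3568 lower. The changes were mostly small: the median size among calls was 0.47 on the log2 scale, and at 2-fold or more 72 genes rose (1.91%) and 147 fell (3.9%). All 3 EVI1 libraries lay above all controls for 1294 genes (34.3%) and below them for 1162 (30.8%). Falls were more frequent among genes under 3 FPKM, of which 17.7% rose and 39.1% fell, and rises among genes of at least 100 FPKM, of which 38.4% rose and 20.2% fell. The filter was passed by 26 genes only through the EVI1 libraries and by 48 only through the controls, and 23 and 47 of these were called. For these genes the groups lay on opposite sides of the filter, so a difference was built into their selection.

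**Figure D2:**
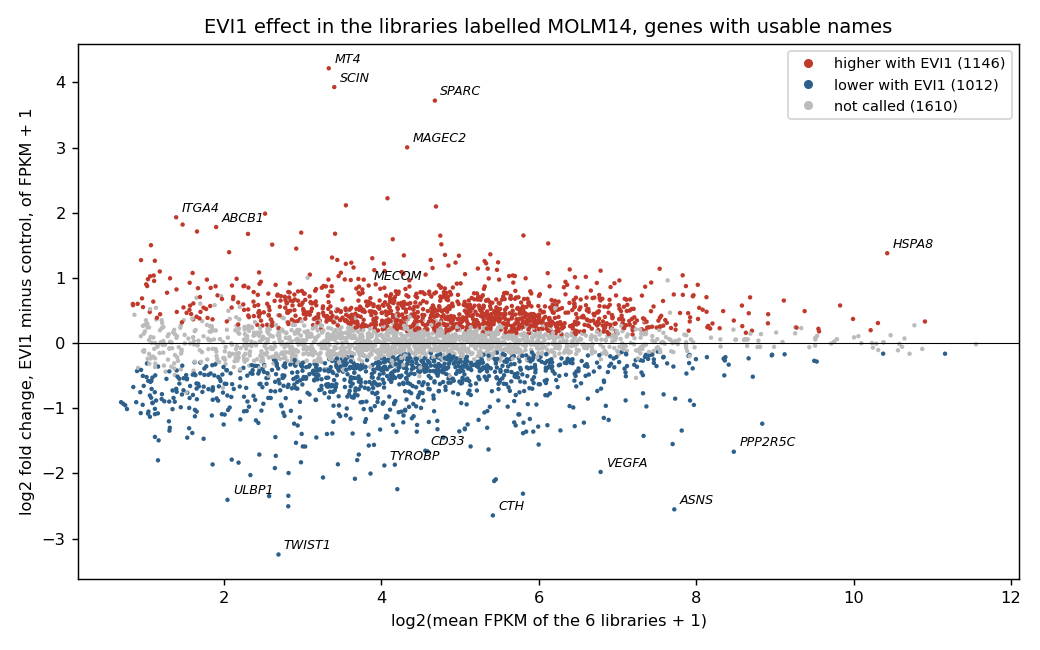
The log2 fold change (EVI1 minus control, of FPKM + 1) of each of the 3768 tested genes is plotted against the log2 of its mean FPKM plus 1, with genes that rose in red, genes that fell in blue and genes not called in grey. Most called genes lie within 1 log2 unit of 0, while SCIN, SPARC and MAGEC2 stand out above and TWIST1, CTH and ASNS below.

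The largest rises were in genes that control libraries held at low levels. MT4, a metallothionein of stratified epithelia, stood at 18.4, 12.4 and 23.6 FPKM in EVI1 libraries and was listed at 0 in all 3 controls, so no fold is given. SCIN, a calcium-dependent actin-severing protein of the gelsolin family, reached 17.5, 19.8 and 19.3 FPKM with EVI1, against 0.278, 0.402 and 0.233 FPKM in control (log2 fold change 3.93, SE 0.10, limma adjusted p = 7.94e-07). The controls of both genes lay below 1 FPKM, so they passed the filter through the EVI1 libraries. SPARC, a matrix glycoprotein also stored in platelets, reached 46.8, 47.8 and 45.3 FPKM in EVI1 libraries and 1.64, 2.90 and 3.57 FPKM in controls, a ratio of 17.2 between the means. MAGEC2, a cancer-testis antigen that partners with ubiquitin ligases, stood at 35.7, 36.1 and 32.5 FPKM against 3.20, 3.64 and 3.53 FPKM in control. For each of these 4 genes the lowest EVI1 library lay far above the highest control. The rule for naming the largest rises required groups without overlap.

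The other large rises were in genes of varied function. ITGA4, the alpha chain of the VLA-4 integrin that anchors blood cells to marrow stroma, stood at 3.53, 3.04 and 2.93 FPKM with EVI1 and at 0.0917, 0.0431 and 0.141 FPKM in control. ABCB1, the efflux pump P-glycoprotein, stood at 5.28, 4.68 and 4.43 FPKM in EVI1 and 0.660, 0.716 and 0.677 FPKM in control libraries (log2 fold change 1.78, limma adjusted p = 1.63e-05); it overlaps RUNDC3B on the other strand, and the labels do not say whether counting used strand. PDK3, a kinase that restrains pyruvate dehydrogenase, averaged 3.84 ± 0.246 FPKM with EVI1 and 0.477 ± 0.0295 FPKM in control (SD, n = 3 each). These 3 genes also passed the filter through the EVI1 libraries alone. The GTPase gene RAB27B averaged 11.1 ± 1.51 and 2.72 ± 0.218 FPKM, the retinoic acid hydroxylase CYP26A1 6.52 ± 0.557 and 1.38 ± 0.408 FPKM, the reductase DHRS2 41.0 ± 0.723 and 8.82 ± 0.150 FPKM, and the neurofilament chain NEFH 18.04 ± 1.00 and 3.40 ± 0.371 FPKM in EVI1 and control libraries (SD, n = 3 each). CD3EAP, a subunit of RNA polymerase I, averaged 26.8 ± 3.60 FPKM with EVI1 and 4.98 ± 0.932 FPKM in control, and overlaps ERCC1 and PPP1R13L on the other strand. MS4A6A, a membrane protein of monocytes, the actin-binding gene NEBL and the kisspeptin receptor KISS1R complete the 15 largest rises, NEBL again through the EVI1 libraries alone, with log2 fold changes of 1.99, 1.82 and 1.68.

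The largest falls included a mesenchymal factor and enzymes of amino acid synthesis. TWIST1, a basic helix-loop-helix factor of mesenchymal cells, lay below 1 FPKM with EVI1 and passed the filter through the controls alone, with 0.295, 0.207 and 0.186 FPKM in EVI1 and 10.7, 12.4 and 9.05 FPKM in control libraries (log2 fold change -3.24, SE 0.13, limma adjusted p = 3.54e-06). STAP1, an adaptor in B cell signalling, averaged 1.14 ± 0.531 FPKM with EVI1 and 11.0 ± 1.79 FPKM in control (SD, n = 3 each), and AKNA, an AT-hook protein of centrosomes and nuclei, 1.33 ± 0.274 and 10.8 ± 1.03 FPKM. ULBP1, a ligand by which stressed cells are seen by NK cells through NKG2D, stood at 0.343, 0.256 and 0.333 FPKM with EVI1 and 6.47, 5.86 and 5.52 FPKM in control, so that no EVI1 library reached 1 FPKM and the gene passed the filter through the controls alone. ADGRD1, an adhesion G protein-coupled receptor, averaged 0.996 ± 0.561 and 8.93 ± 0.588 FPKM, and NFATC4, a calcineurin-dependent factor, 0.987 ± 0.0836 and 7.12 ± 0.964 FPKM in EVI1 and control libraries. BCL6, a transcriptional repressor of germinal centre B cells and a STAT5-repressed gene, averaged 3.85 ± 0.430 FPKM with EVI1 and 19.5 ± 2.12 FPKM in control. The other 8 of the 15 largest falls belong to the stress and amino acid genes that follow. No library of either group overlapped the other for any of these genes, which the rule for naming them required.

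**Figure D3:**
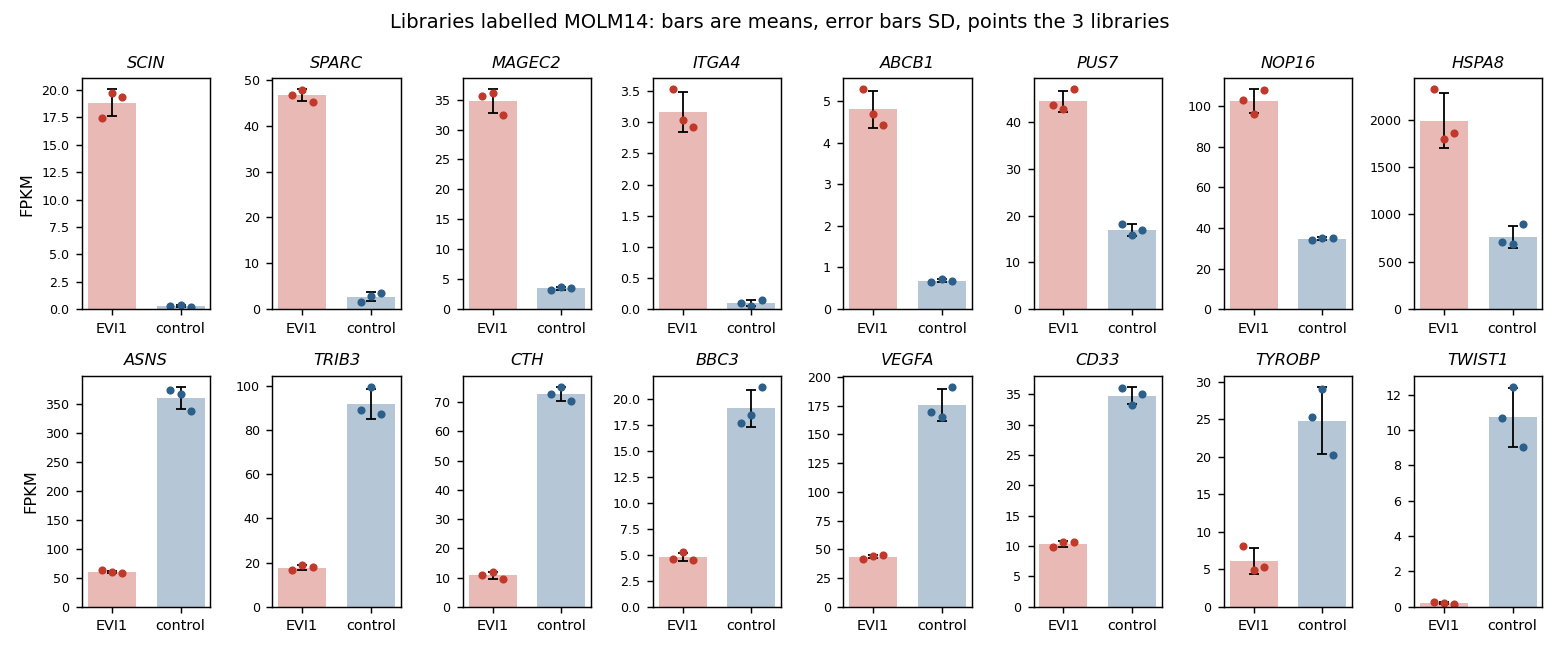
Bars give the mean FPKM of 3 libraries labelled MOLM14, error bars the SD and points the libraries, with EVI1 in red left of control in blue, for 8 genes that rose and 8 genes that fell, each panel on its own axis from 0. The groups do not overlap in any panel, which the rule required for the panels taken from the largest rises and falls. The controls of SCIN and ITGA4 and the EVI1 libraries of TWIST1 lie close to 0.

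Genes of the integrated stress response fell together. In this response, stalled translation raises the factor ATF4, which turns on enzymes that make and import amino acids and the synthetases that load them onto tRNA. Of 13 members with usable rows, all tested, 11 fell, 1 rose and 1 was not called, where 26.9% of all tested genes fell and 30.4% rose. The median log2 fold change was -1.55, against 0.02 over all tested genes. ASNS, which makes asparagine, stood at 62.7, 60.4 and 58.5 FPKM in EVI1 and 374, 368 and 338 FPKM in control libraries (log2 fold change -2.55, SE 0.06, limma adjusted p = 6.22e-07), and control was 5.95-fold higher. CTH, which makes cysteine from cystathionine, stood at 10.9, 12.0 and 9.57 FPKM with EVI1 and 72.8, 75.1 and 70.3 FPKM in control. TRIB3, a pseudokinase that feeds back on ATF4, stood at 16.5, 18.7 and 17.8 FPKM against 88.8, 99.4 and 87.1 FPKM. In these 3 genes every EVI1 library lay far below the lowest control, and the rule for naming the largest falls required groups without overlap. PHGDH, the first enzyme of serine synthesis, averaged 5.42 ± 0.740 and 29.5 ± 4.65 FPKM, PCK2, the mitochondrial PEP carboxykinase, 15.2 ± 1.49 and 69.3 ± 2.66 FPKM, and the secreted glycoprotein STC2 2.69 ± 0.730 and 14.5 ± 3.71 FPKM in EVI1 and control libraries (SD, n = 3 each). PCK2 overlaps NRL on the other strand. The member that rose was ALDH18A1, an enzyme of proline synthesis (log2 fold change 0.22, limma adjusted p = 0.0141). In K562 the same 13 genes counted 7 higher and 2 lower, where 28.5% of all tested genes rose and 26.6% fell.

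The tRNA synthetases and transporters of amino acids did not all follow. Of 9 cytosolic synthetases, 6 fell and 2 rose, with a median of -0.47, where 26.9% of all tested genes fell and 30.4% rose. AARS, CARS and GARS, which load alanine, cysteine and glycine, fell by 1.42, 1.36 and 1.34 on the log2 scale, and SARS, which loads serine, averaged 170.4 ± 10.7 FPKM with EVI1 and 329.7 ± 8.89 FPKM in control (SD, n = 3 each). FARSB, a subunit of the phenylalanine enzyme, rose (0.36, limma adjusted p = 0.00193). Of 12 amino acid transporters, 4 fell and 6 rose. SLC1A4, a carrier of alanine, serine and cysteine, stood at 4.51, 5.48 and 4.50 FPKM with EVI1 and 21.7, 22.8 and 22.4 FPKM in control, and SLC7A5, the large neutral amino acid exchanger, at 35.1, 37.4 and 35.9 and 85.3, 91.6 and 91.2 FPKM. The lysosomal carrier SLC38A7 and the aromatic amino acid carrier SLC16A10, which passed the filter through the EVI1 libraries alone, rose, with log2 fold changes of 0.74 and 1.03.

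The CARE motif, to which ATF4 binds with C/EBP partners, has the core TGATGNAA. It was found on either strand in the promoter windows of ASNS, 1 of 12 members of the stress response with a window (8.33%), and of AARS, CARS and TARS, 3 of 8 synthetases (37.5%), against 1.49% of the 3149 tested genes with a window and 3.67% of all 27305. The windows of ASNS and CARS are shown because their genes fell and hold this core, on the minus strand of chromosome 7 at chr7:97872359-97872658 and of chromosome 11 at chr11:3057374-3057673 (RefSeq, GRCh38.p14), printed 5′ to 3′ with the core in capitals; it starts 68 bases before the start of ASNS and 2 before that of CARS, where it lies in reverse. In ASNS it overlaps a match to the heat shock core described further on. Where the core was not found, these letters are not in the window, which says nothing of the factor.
ASNS: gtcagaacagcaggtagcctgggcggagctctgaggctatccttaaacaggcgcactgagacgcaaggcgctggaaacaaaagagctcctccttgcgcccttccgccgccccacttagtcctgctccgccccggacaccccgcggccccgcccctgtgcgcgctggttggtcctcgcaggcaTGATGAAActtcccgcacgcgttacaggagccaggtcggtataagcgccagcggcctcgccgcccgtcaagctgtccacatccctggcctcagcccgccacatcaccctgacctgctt
CARS: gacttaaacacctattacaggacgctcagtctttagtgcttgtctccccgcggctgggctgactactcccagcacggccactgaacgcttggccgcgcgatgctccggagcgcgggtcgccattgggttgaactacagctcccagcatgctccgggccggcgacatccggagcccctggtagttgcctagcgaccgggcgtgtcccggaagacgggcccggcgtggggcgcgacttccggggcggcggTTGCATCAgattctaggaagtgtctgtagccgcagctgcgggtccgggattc

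Genes of the unfolded protein response of the endoplasmic reticulum fell in 7 of 11 tested cases, with 1 rise (2 without EVI1 replicate 3 or control replicate 3) and a median of -0.40, and 1 further member lay below the filter. Over all tested genes 26.9% fell and 30.4% rose. HERPUD1, a membrane protein of the degradation pathway, stood at 15.4, 18.7 and 13.3 FPKM with EVI1 and 70.1, 68.1 and 71.8 FPKM in control (log2 fold change -2.09, SE 0.11, limma adjusted p = 9.75e-06). HSPA5, the lumenal chaperone BiP, averaged 151 ± 1.80 and 273 ± 8.61 FPKM, its partner in degradation SEL1L 9.24 ± 0.932 and 19.0 ± 0.569 FPKM, and the response factor XBP1 51.2 ± 2.00 and 88.1 ± 3.06 FPKM in EVI1 and control libraries (SD, n = 3 each). The co-chaperone DNAJB11 rose by a small amount (0.25, limma adjusted p = 0.00604). The groups did not overlap for any of these 5 genes, which the rule for naming the largest falls required of HERPUD1.

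Most genes on the list of heat shock proteins and chaperones rose. Of 20 tested genes, 16 rose, 1 fell and 3 were not called, with a median of 0.55, where 30.4% of all tested genes rose and 26.9% fell. The list summed to 7747 to 8294 FPKM in EVI1 libraries and 5247 to 5322 FPKM in control libraries. HSPA8, the constitutive HSP70 of the cytosol, stood at 2317, 1794 and 1855 FPKM with EVI1 and 706, 689 and 899 FPKM in control (log2 fold change 1.38, SE 0.13, limma adjusted p = 0.000122). HSPH1, its nucleotide exchange factor, stood at 87.8, 80.7 and 83.2 FPKM against 27.8, 25.1 and 25.3 FPKM, and DNAJA1, a J-domain partner, at 151, 150.1 and 148 FPKM against 71.8, 67.6 and 67.4 FPKM. CHORDC1, a co-chaperone of HSP90, averaged 92.9 ± 6.51 FPKM with EVI1 and 43.7 ± 4.73 FPKM in control (SD, n = 3 each). The list is not limited to the cytosol: HSPE1 of mitochondria, also on the list of MYC targets, rose (0.87, limma adjusted p = 0.000951), and the transcription factor HSF2 was not called (-0.02, limma adjusted p = 0.911). The member that fell was HSPA9, the HSP70 of mitochondria (-0.22, limma adjusted p = 0.00364). In K562 these 20 genes counted 1 higher and 12 lower, where 28.5% of all tested genes rose and 26.6% fell.

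The heat shock element repeats GAA in turned orientation, and its core GAANNTTC reads the same on both strands. It was found in 7 of the 20 promoter windows of the list (35%), against 4.54% of tested genes and 6.87% of all windows, and in 4.61% of the windows of genes that rose. The windows of HSPA8 (minus strand, chr11:123062087-123062386) and CHORDC1 (minus strand, chr11:90223000-90223299) are shown as examples of members that rose and hold the core, in capitals, 2 times in HSPA8 and 3 times in CHORDC1.
HSPA8: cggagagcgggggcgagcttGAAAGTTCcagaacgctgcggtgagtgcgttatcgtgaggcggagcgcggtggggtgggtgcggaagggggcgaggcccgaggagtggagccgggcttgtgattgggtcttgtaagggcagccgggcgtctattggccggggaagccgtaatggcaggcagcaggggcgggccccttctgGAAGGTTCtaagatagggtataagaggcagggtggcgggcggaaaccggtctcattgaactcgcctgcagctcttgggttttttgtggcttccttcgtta
CHORDC1: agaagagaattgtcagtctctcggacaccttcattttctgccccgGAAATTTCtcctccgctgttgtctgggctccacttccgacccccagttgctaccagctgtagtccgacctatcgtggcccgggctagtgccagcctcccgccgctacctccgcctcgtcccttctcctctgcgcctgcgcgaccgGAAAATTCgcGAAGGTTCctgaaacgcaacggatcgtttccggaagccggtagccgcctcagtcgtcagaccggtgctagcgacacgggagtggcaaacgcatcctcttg

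Nearly every tested gene on the list of MYC targets and ribosome biogenesis rose. Most of its members process ribosomal RNA or assemble ribosomes in the nucleolus, while ODC1 and SRM make polyamines, CAD starts pyrimidine synthesis and HSPE1 is a mitochondrial chaperonin subunit. All 29 members with usable rows were tested, of which 28 rose and 0 fell, with a median of 0.71. Over all tested genes 30.4% rose and 26.9% fell. NOP16, a nucleolar assembly factor, stood at 103, 96.2 and 108 FPKM in EVI1 and 34.1, 35.3 and 35.1 FPKM in control libraries (log2 fold change 1.53, SE 0.06, limma adjusted p = 3.18e-06); it overlaps ARL10 and HIGD2A on the other strand. RRP9, a protein of the U3 particle, stood at 25.6, 28.0 and 27.3 FPKM with EVI1 and 9.05, 11.6 and 9.53 FPKM in control. PUS7, a pseudouridine synthase, stood at 43.7, 42.7 and 47.0 FPKM against 18.2, 15.8 and 16.9 FPKM, and UTP20, a scaffold of the early small subunit, at 14.4, 13.8 and 13.2 FPKM against 5.11, 4.82 and 4.94 FPKM. For these genes each EVI1 library lay well above the highest control. The member not called was fibrillarin, FBL (log2 fold change 0.25, limma adjusted p = 0.0957), named after its value was seen. In K562, 28 of the 29 fell and 0 rose, where 26.6% of all tested genes fell and 28.5% rose. The EVI1 effect differed between the labels in all 29, each time higher under the MOLM14 label, where 34.1% of genes differed in that direction.

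The E-box CACGTG, to which MYC binds with MAX, reads the same on both strands. It was found in 11 of the 25 promoter windows of the list (44%), against 10.6% of tested genes and 7.43% of all windows, and in 12.6% of the windows of genes that rose and 9.91% of those of genes that fell. The E-box was not particular to this list. It was also found in 3 of 12 windows (25%) of the stress response list, whose genes mostly fell. The chaperone list held it in 3 of 20 windows (15%) and the synthetases in 0 of 8. The windows of PUS7 (minus strand, chr7:105522222-105522521) and UTP20 (plus strand, chr12:101279855-101280154) are shown as examples of members that rose and hold the E-box, in capitals. It starts at base 29 after the start of PUS7 and 10 bases before that of UTP20. The window of NOP16, which had the largest rise of the list, does not hold it.
PUS7: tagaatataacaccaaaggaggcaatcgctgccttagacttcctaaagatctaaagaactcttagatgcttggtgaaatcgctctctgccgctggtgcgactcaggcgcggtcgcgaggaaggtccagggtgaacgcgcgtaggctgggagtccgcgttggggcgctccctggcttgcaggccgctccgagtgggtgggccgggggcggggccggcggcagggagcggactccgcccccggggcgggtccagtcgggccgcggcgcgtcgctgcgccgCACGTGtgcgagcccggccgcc
UTP20: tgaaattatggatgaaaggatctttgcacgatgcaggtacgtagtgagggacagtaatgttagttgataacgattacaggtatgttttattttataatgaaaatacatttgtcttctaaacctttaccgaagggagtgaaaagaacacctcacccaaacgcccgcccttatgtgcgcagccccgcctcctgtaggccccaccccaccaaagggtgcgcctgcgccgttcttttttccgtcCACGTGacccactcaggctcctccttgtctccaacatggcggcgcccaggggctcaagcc

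The ribosomal proteins themselves did not move with the genes that assemble them. Of 22 members, 17 were not called, 2 rose and 3 fell, with a median of 0.00, and leaving out 1 library gave 0 to 3 rises (0 without control replicate 1 or 3) and 0 to 4 falls (0 without EVI1 replicate 3), in the limma fit. The list summed to 26920 to 27350 FPKM in EVI1 and 26260 to 28960 FPKM in control libraries, which overlap. Among 21 translation factors, 11 rose and 4 fell (2 without EVI1 replicate 3), where 30.4% of all tested genes rose and 26.9% fell. EIF5, which sets off GTP hydrolysis at the start codon, stood at 299, 309.6 and 307 FPKM with EVI1 and 147, 147 and 149.5 FPKM in control, and EIF4G1, the scaffold of the cap complex, averaged 225 ± 10.0 and 118 ± 3.23 FPKM (SD, n = 3 each). EIF2B1, a subunit of the exchange factor on which the stress response acts, rose (0.72, limma adjusted p = 5.96e-05; it overlaps DDX55 and GTF2H3 on the other strand), and the kinase gene EEF2K, which slows elongation, fell (-0.39, limma adjusted p = 0.00325). Of 24 mitochondrial ribosomal proteins, 14 rose and 0 fell (median 0.30), among them MRPS2 and MRPL4 with 0.68 and 0.59.

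**Figure D4:**
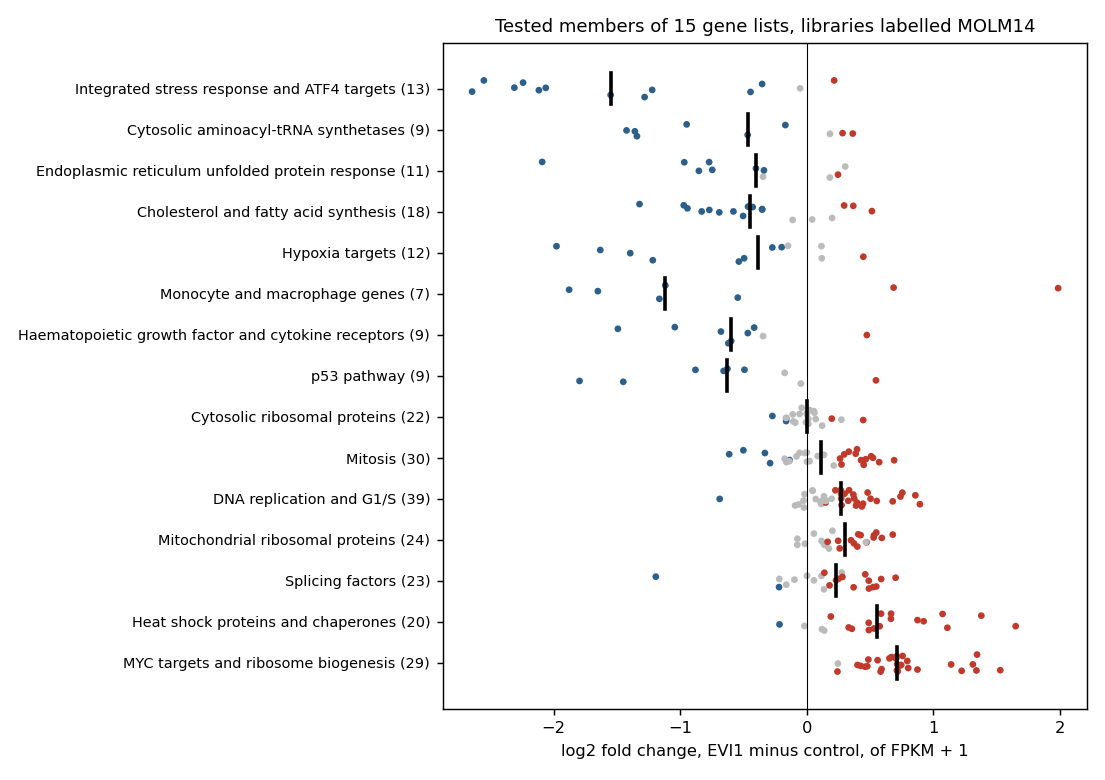
Each point is the log2 fold change (EVI1 minus control, of FPKM + 1) of 1 tested gene in the libraries labelled MOLM14, red where it rose, blue where it fell and grey where it was not called, in 15 gene lists with the number of tested members in brackets, and the black bar is the median. Medians run from -1.55 for the integrated stress response and ATF4 targets to 0.71 for MYC targets and ribosome biogenesis, with ribosomal proteins around 0.

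DNA replication genes rose in 23 of 39 tested cases, with 1 fall, 15 not called and a median of 0.27. CCNE1, the cyclin that drives entry into S phase, stood at 33.2, 36.2 and 32.4 FPKM with EVI1 and 18.1, 19.0 and 17.7 FPKM in control, and CCND1, a cyclin of G1, averaged 7.19 ± 0.492 and 3.44 ± 0.718 FPKM (SD, n = 3 each). The helicase subunit MCM4 averaged 284 ± 19.0 FPKM with EVI1 and 169.6 ± 10.7 FPKM in control, and GINS1, a partner of the helicase, 22.1 ± 0.546 and 12.7 ± 0.959 FPKM. The fall was in another G1 cyclin, CCND2 (-0.69, limma adjusted p = 0.000201). Of 5 inhibitors and pocket proteins, too few for a result about the list, 3 fell. These were RBL2, CDKN1B (p27) and CDKN2C (p18), by 0.62, 0.49 and 0.44 on the log2 scale. CDKN3 rose (0.31, limma adjusted p = 0.0152), a call lost without the filter (adjusted p = 0.0524). Among mitotic genes the calls were mixed, 13 of 30 rising and 5 falling, TACC3 of the spindle at 0.57 and the kinetochore gene NDC80 at -0.61.

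Genes of sterol and fatty acid synthesis fell in 12 of 18 tested cases, with 3 rises and a median of -0.45, and 1 member lay below the filter. Over all tested genes 26.9% fell and 30.4% rose. MSMO1, a sterol demethylation enzyme, stood at 18.9, 17.7 and 17.7 FPKM with EVI1 and 49.0, 44.6 and 46.7 FPKM in control (log2 fold change -1.32, SE 0.06, limma adjusted p = 6.38e-06). FDFT1, squalene synthase, averaged 111 ± 3.84 and 218 ± 0.791 FPKM, and the acyl-CoA synthetase ACSL3 42.0 ± 3.36 and 81.5 ± 3.79 FPKM in EVI1 and control libraries (SD, n = 3 each). MVK, mevalonate kinase, fell by 0.83, and overlaps MMAB on the other strand. ELOVL1, which extends very long fatty acids, rose (0.51, limma adjusted p = 0.000241).

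Hypoxia targets fell in 8 of 12 tested cases, with 1 rise and a median of -0.38. VEGFA, the growth factor of blood vessels, stood at 41.9, 44.4 and 44.7 FPKM with EVI1 and 169, 165 and 191 FPKM in control (log2 fold change -1.98, SE 0.07, limma adjusted p = 2.2e-06). P4HA1, a collagen prolyl hydroxylase, averaged 19.1 ± 1.40 and 61.2 ± 3.55 FPKM, and EPAS1, the hypoxia factor HIF2A, 4.50 ± 1.04 and 13.3 ± 1.29 FPKM (SD, n = 3 each). The glucose transporter SLC2A1 rose (0.45, limma adjusted p = 0.00309). Among 17 glycolysis genes 5 rose and 6 fell, where 30.4% of all tested genes rose and 26.9% fell. That count is no result about the list, whose falls were led by the aldolase ALDOC (-1.36) and whose rises by PDK3 (1.71). The tricarboxylic acid cycle counted 3 rises and 3 falls of 15, and oxidative phosphorylation 6 rises and 1 fall of 18, of which the complex I subunit NDUFB2 had the largest (0.73; it overlaps ADCK2 on the same strand).

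The title of the series points to genes of cell death. None of the survival members of the BCL2 family, and not AKT1, had a usable row, so nothing is said of them here. Of 8 tested pore-forming and BH3-only members, 3 rose, 3 fell and 2 were not called, and 2 lay below the filter, where 30.4% of all tested genes rose and 26.9% fell, so the count is no result about this list. BBC3, which encodes the BH3-only protein PUMA, stood at 4.60, 5.28 and 4.49 FPKM with EVI1 and 17.7, 18.5 and 21.1 FPKM in control (log2 fold change -1.80, SE 0.09, limma adjusted p = 9.61e-06). BNIP3L, a mitophagy receptor that is also on the hypoxia list, averaged 30.001 ± 1.79 and 71.2 ± 6.77 FPKM, and BCL2L13, of the outer mitochondrial membrane, 38.9 ± 0.994 and 75.5 ± 1.72 FPKM in EVI1 and control libraries (SD, n = 3 each). The pore-forming genes rose, BAX at 75.8, 93.0 and 80.5 FPKM against 50.2, 60.5 and 58.9 FPKM in control and BAK1 at 16.7, 20.7 and 17.8 FPKM against 12.5, 12.4 and 13.6 FPKM. These are increases of 0.55 (limma adjusted p = 0.00246) and 0.48 (limma adjusted p = 0.00285) on the log2 scale, with no overlap of groups.

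Of 14 tested caspases, death receptors and inhibitors of apoptosis, 4 rose and 6 fell, and 3 lay below the filter, again not far from the shares over all tested genes. TNFRSF10B, the TRAIL receptor DR5, stood at 13.005, 14.9 and 13.6 FPKM with EVI1 and 36.8, 42.9 and 38.9 FPKM in control; it overlaps RHOBTB2 on the other strand. The inhibitor BIRC3, which passed the filter through the controls alone, averaged 0.397 ± 0.0347 and 2.56 ± 0.375 FPKM, CASP10 8.75 ± 0.445 and 14.8 ± 0.162 FPKM, and CASP2, which rose, 32.8 ± 2.23 and 19.8 ± 1.54 FPKM in EVI1 and control libraries (SD, n = 3 each). Genes of the p53 pathway fell in 6 of 9 tested cases with 1 rise (median -0.63). This list shares BBC3, BAX and TNFRSF10B with those above, and its other leading falls were GADD45A (-0.88), which stood at 96.1 ± 7.82 and 177 ± 2.77 FPKM, and GADD45B (-0.66), whose EVI1 libraries all lay below 1 FPKM.

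AKT2 was not called. It stood at 62.5, 60.3 and 60.7 FPKM in EVI1 and 52.4, 56.6 and 63.8 FPKM in control libraries, groups that overlap (log2 fold change 0.09, limma adjusted p = 0.347). The pathway of PI3K, AKT and mTOR had 26 tested genes, 5 of which rose and 8 of which fell. Over all tested genes 30.4% rose and 26.9% fell, so the count is no result about this list. The largest fall was in PPP2R5C, a regulatory subunit of the phosphatase PP2A, at 157, 160.3 and 183 FPKM with EVI1 and 677, 576 and 382 FPKM in control, where the 3 controls spread widely. SGK3, a kinase related to AKT, averaged 3.43 ± 0.296 and 9.44 ± 0.795 FPKM, the transcription factor FOXO3, which AKT keeps out of the nucleus, 6.68 ± 0.429 and 11.2 ± 0.259 FPKM, and INPP4B, a phosphatase that opposes AKT and passed the filter through the controls alone, 0.611 ± 0.209 and 1.62 ± 0.354 FPKM in EVI1 and control libraries (SD, n = 3 each). GSK3A, a kinase that AKT inhibits, rose (0.56, limma adjusted p = 0.000152; it overlaps a coding gene with a clone name on the same strand).

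JAK-STAT genes fell in 5 of 9 tested cases and rose in 1, where 26.9% of all tested genes fell and 30.4% rose. SOCS2, a feedback inhibitor induced by STAT5, stood at 59.7, 53.3 and 55.8 FPKM with EVI1 and 132, 131 and 134 FPKM in control, and the kinase JAK2 averaged 13.6 ± 0.550 and 26.9 ± 2.38 FPKM (SD, n = 3 each). Among 13 MAPK genes 5 rose and 4 fell, not far from the shares over all tested genes, so the count is no result about that list. The kinase MAP2K3 had a log2 fold change of 0.85 and MAPK3 (ERK1) one of -0.43. Growth factor and cytokine receptors fell in 7 of 9 tested cases with 1 rise, and 7 lay below the filter. CSF3R, the receptor of the granulocyte growth factor, stood at 0.222, 0.158 and 0.137 FPKM with EVI1 and 2.49, 1.69 and 2.83 FPKM in control, and passed the filter through the controls alone. Of the other falls, those of IL18R1 and IL1R1 were lost without EVI1 replicate 3 (adjusted p = 0.0781 and 0.0691), without control replicate 2 (0.0554 and 0.0932) and without the filter on low values (0.103 and 0.111), while LEPR, the leptin receptor, averaged 25.6 ± 0.971 FPKM with EVI1 and 53.8 ± 2.72 FPKM in control and shares its locus with LEPROT on the same strand.

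Of 14 tested erythroid genes, 5 rose and 5 fell, near the 30.4% and 26.9% over all tested genes. The erythroid factor KLF1 stood at 55.6, 63.1 and 60.1 FPKM with EVI1 and 32.0, 36.7 and 34.8 FPKM in control, and the transferrin receptor TFRC at 303, 312 and 309 FPKM against 198, 184 and 179 FPKM, while the membrane protein XK averaged 14.9 ± 0.460 and 27.3 ± 2.33 FPKM and fell. Of 13 megakaryocyte and platelet genes, 5 rose and 1 fell, with 6 below the filter: beside SPARC and RAB27B these were PTGS1, the cyclooxygenase of platelets, at 16.04, 16.4 and 16.3 FPKM against 6.81, 6.35 and 5.86 FPKM, the platelet tubulin TUBB1 (0.97; it overlaps ATP5E on the other strand) and NFE2 (0.49). The fall was in ARHGAP6 (-0.77; it overlaps AMELX on the other strand).

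Monocyte genes fell in 5 of 7 tested cases and rose in 2 (1 when any single library other than control replicate 2 was left out), and 12 further members lay below the filter, so that the list summed to 67.22 to 68.64 FPKM in EVI1 and 149.3 to 160.6 FPKM in control libraries. TYROBP, the adaptor DAP12, stood at 8.11, 4.88 and 5.27 FPKM with EVI1 and 25.3, 29.03 and 20.2 FPKM in control (log2 fold change -1.88, SE 0.19, limma adjusted p = 0.000164). The sialic acid receptor CD33 stood at 9.82, 10.7 and 10.7 FPKM against 36.1, 33.2 and 35.1 FPKM, and lysozyme, LYZ, at 36.0, 35.3 and 35.3 FPKM against 82.3, 80.3 and 80.1 FPKM. No EVI1 library reached the lowest control in these 3 genes, and MS4A6A, named above, was the larger of the 2 rises. The line markers of K562 counted 5 rises and 1 fall of 7, where 30.4% of all tested genes rose and 26.9% fell. Of those rises, GATA1, KLF1, NFE2 and TFRC also stand in the erythroid list, which counted 5 rises and 5 falls of 14. A change in the proportion of cells and a change of RNA per cell cannot be told apart in such bulk libraries, and the part of the marker differences in the other results was not tested.

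The EVI1 effect differed between the labels for most genes tested under both. Of 3697 such genes, 2400 differed (64.9%), 1262 with a higher effect under the MOLM14 label (34.1%) and 1138 with a lower one (30.8%). The slight excess of higher effects turned when libraries were scaled to the same FPKM sum (1013 higher and 1248 lower) and under TMM scaling (1199 and 1207). Across these genes the log2 fold changes of the 2 labels, which share no libraries, had a Pearson r of -0.22 and a Spearman rho of -0.31, given as a description over genes that are not independent. Among the 1222 genes called under both labels, 177 rose and 146 fell under both, 503 rose under the MOLM14 label and fell in K562, and 396 fell under the MOLM14 label and rose in K562. The rise of MECOM had a difference of -0.04 (SE 0.14, limma adjusted p = 0.807), which at this SE does not show that the effects are equal.

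Stress response genes were among the largest differences on the lower side. ASNS had log2 fold changes of -2.55 under the MOLM14 label and 2.00 in K562, a difference of -4.55 (SE 0.22, limma adjusted p = 8.81e-10), and HERPUD1 of -2.09 and 2.47. ULBP1, the NKG2D ligand, had -2.41 and 2.76, and ADGRD1 -2.35 and 2.83. TFPI, the inhibitor of tissue factor, fell under the MOLM14 label (-0.70) at 46.6, 46.2 and 41.9 FPKM in EVI1 and 83.3, 77.9 and 61.1 FPKM in control libraries, and rose in K562 (4.15) at 703, 634 and 659.6 FPKM and 38.6, 34.8 and 36.5 FPKM. GCA, a calcium-binding protein of granulocytes that overlaps KCNH7 on the other strand, fell by 1.04 under the MOLM14 label and had 3.96 in K562. Of 13 stress response genes the difference was lower in 10 and higher in 2, and of 11 unfolded protein response genes lower in 8 and higher in 3.

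On the higher side, SCIN differed by 3.83 (SE 0.12, limma adjusted p = 7.03e-12): its 3 controls labelled MOLM14 lay below 1 FPKM, while K562 held 30.1, 28.7 and 27.4 FPKM with EVI1 and 27.5, 25.0 and 27.8 FPKM in control. NEFH rose under the MOLM14 label (2.11) and fell in K562 (-1.51), as did CD3EAP (2.22 and -1.28), KISS1R (1.68 and -1.04), PUS7 (1.34 and -1.29) and UTP20 (1.31 and -1.24). Of 20 chaperone genes the difference was higher in 17 and lower in 0, and of 39 replication genes higher in 24 and lower in 1. A smaller set moved alike: SPARC rose under both labels (3.72 and 2.01), as did RAB27B (1.69 and 3.33), CYP26A1 (1.68 and 1.72) and NEBL (1.82 and 1.91), while the laminin chain LAMB1 (-1.25 and -1.40) and the actin regulator WAS (-1.59 and -1.81) fell under both. The difference itself passed the threshold for SPARC (1.71) and RAB27B (-1.64) and not for CYP26A1, NEBL, LAMB1 or WAS (limma adjusted p = 0.863, 0.679, 0.36 and 0.233).

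**Figure D5:**
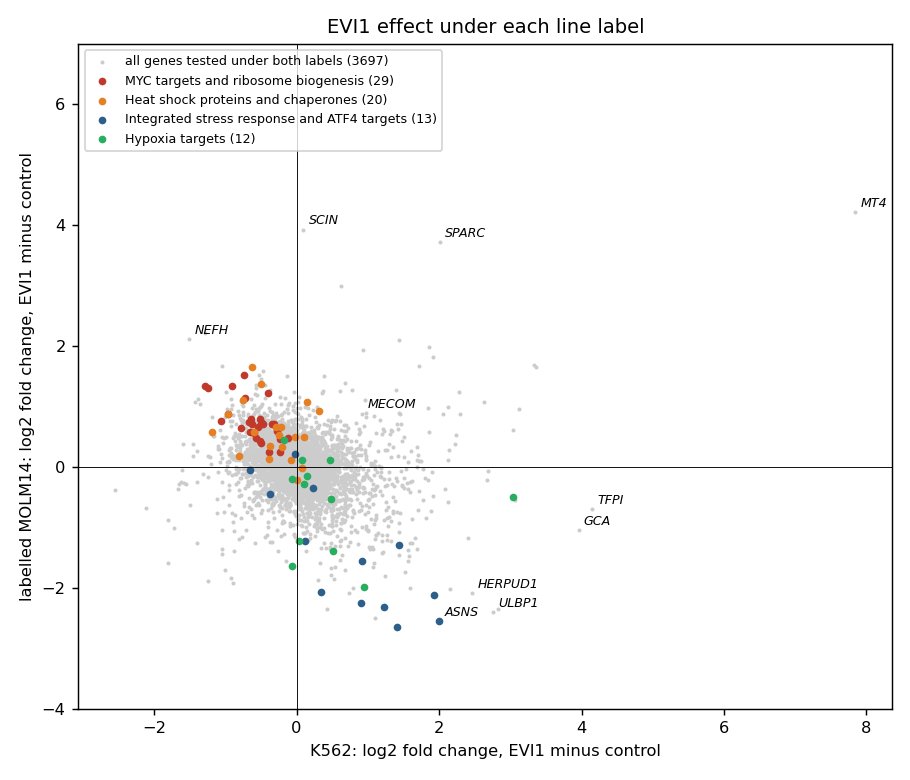
Each point is a gene tested under both labels, with its log2 fold change (EVI1 minus control, of FPKM + 1) in K562 on the x axis and in the libraries labelled MOLM14 on the y axis, and 4 gene lists in colour. MYC target and ribosome biogenesis genes (red) and most chaperones (orange) lie at the upper left. Many of the stress response genes (blue) lie at the lower right, and MECOM and SPARC at the upper right.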

How the data were processed

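RNA was measured in 12 libraries, of which the 6 labelled MOLM14 (3 EVI1, 3 control) were compared and the 6 of K562 used for differences of effect. The deposited table holds FPKM per gene, which the authors computed; the submitters' processing notes name Cuffnorm, Cufflinks and STAR without versions and the builds GRCh38 and hg38. No counts are given, so the read depth is unknown and no counting interval is printed. Sample titles gave each library's group and number.

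Row order was checked in windows of 500 rows: control libraries of both labels correlated at 0.965 or more in the 11 windows before row 5511 and at 0.0414 in the next. EVI1 and control columns of the MOLM14 label stayed in step in all 107 windows with enough expressed rows (lowest r 0.911). No row was realigned, and 1 blank row was left out. Coordinates are from GENCODE 29, which held 5016 of the 5510 identifiers.

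Values were analysed as log2(FPKM + 1) with R 4.3.3 and limma 3.58.1, with a mean-variance trend, two-sided. Rows with at least 1 FPKM in at least 3 of the 6 libraries were fitted, 13315 in all, with Benjamini-Hochberg adjustment over all of them and a threshold of 0.05. The difference of effects was fitted over all 12 libraries on the 3697 named rows that passed under both labels. Tables and figures used Python 3.11.15, pandas 2.3.3, NumPy 2.4.6 and matplotlib 3.10.9. TMM factors for an alternative were computed on the FPKM values by the published trimming rule. In simulated data for the comparison of EVI1 with control labelled MOLM14 (13437 rows), 98 of 100 changes of 1 log2 unit and 65 of 100 of 0.5 were recovered, and 4.12% of calls were false. No other changes were planted, and these were all upward and left out the lowest genes. In the data 54.2% of rows were called, so the recovered and false shares there can differ.

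The 55 gene lists (2003 genes, 796 with usable rows, 669 tested) and the rule for named genes were chosen with earlier results of these data known, so list counts are descriptions with no test. Some genes stand in several lists, and 3 named genes are not reported here. Named were MECOM, the BCL2 and AKT genes and partners of EVI1 with usable rows, the 15 largest rises and falls without overlap of groups, up to 4 called members of each list and the leading opposite one, the line markers, and the 6 largest differences between labels each way.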

Additional observations from a re-analysis of the deposited data

Results flagged for a closer look

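The EVI1 effect differed between the labels for 2400 of 3697 genes by the interaction test of limma over all 12 libraries. The genes below are the 6 with the largest differences each way, all with a limma adjusted p under 0.05, and each difference is the log2 fold change under the MOLM14 label minus that in K562.

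Higher under the MOLM14 label were SCIN, which severs actin filaments, by 3.83, the neurofilament chain NEFH by 3.63, the RNA polymerase I subunit CD3EAP by 3.51, the kisspeptin receptor KISS1R by 2.72, the pseudouridine synthase PUS7 by 2.63 and the nucleolar scaffold UTP20 by 2.55. Lower under the MOLM14 label were the adhesion receptor ADGRD1 (-5.18), the NKG2D ligand ULBP1 (-5.17), the calcium-binding protein GCA (-5.00), the tissue factor inhibitor TFPI (-4.85), the degradation factor HERPUD1 (-4.56) and asparagine synthetase, ASNS (-4.55). Most of the line markers given above go against the MOLM14 label, and their part in these differences was not tested.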

How the results depend on the processing

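Over 16 alternatives, MECOM kept a log2 fold change of 0.845 to 0.947 (limma adjusted p 1.91e-05 to 0.000692). Genes with usable names that rose numbered 981 to 1181 and genes that fell 863 to 1089; leaving out 1 library gave 981 to 1076 and 863 to 959. The slight excess of rises over falls turned under rescaling to the same FPKM sum (1062 rises and 1089 falls). At 2-fold or more the counts were 60 to 107 rises and 117 to 208 falls, highest with a pseudocount of 0.1 and lowest with a filter of 5 FPKM. Higher effects under the MOLM14 label numbered 1013 to 1307 and lower ones 1080 to 1248, with lower effects the more frequent under the same FPKM sum and TMM scaling. Of 208 named genes that were tested, 21 changed side of the threshold under some alternative, over 83 lost calls and 1 gained, and none turned direction. The lost calls include HDAC4, UBE2S, PTPRC, RPLP0 and H2AFY, of which RPLP0 is counted among the falls of ribosomal proteins, UBE2S among the mitotic rises and HDAC4 among the rises of chromatin regulators. Of 1664 counts of list members, 1597 stayed within 1.5 times. Same-numbered deviations from the group means correlated at 0.139, 0.104 and 0.063, above every different-numbered pair (-0.100 to 0.004). The labels do not say whether a number marks a shared culture, and pairing was not tested. The main fit used no pairing, and with the replicate block 1149 named genes rose and 1007 fell. Depth is unknown for these libraries, so nothing bounds what a value of 0 allows, and the labels give no batch.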

Other observations

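Further gene lists are given by their counts, where 30.4% of all tested genes rose and 26.9% fell. Splicing factors rose in 13 of 23 tested cases and fell in 2, with a median log2 fold change of 0.23; SRSF3, a serine and arginine rich factor, stood at 549, 495 and 481 FPKM with EVI1 and 291, 288 and 362 FPKM in control, and CELF2, a regulator of alternative splicing, averaged 14.9 ± 0.209 and 35.5 ± 1.99 FPKM and fell. Proteasome subunits rose in 13 of 22 cases and fell in 1, the gene PSMD10 of an assembly chaperone (-0.48), with PSMD11 at 0.57. Of 21 autophagy and lysosome genes, 9 fell and 5 rose: the protease CTSH averaged 77.4 ± 2.08 FPKM with EVI1 and 152 ± 5.199 FPKM in control, and the autophagy gene ATG16L1 13.8 ± 2.86 and 6.20 ± 0.925 FPKM (SD, n = 3 each). Drug transporters rose in 4 of 8 cases and fell in 0, with 6 below the filter; beside ABCB1 these were ABCC1 (0.56), ABCB6 (0.37) and ABCC5 (0.24). Antioxidant genes counted 6 rises and 4 falls of 15, with KEAP1, which holds NRF2 in check, at 0.74 and NFE2L2, which encodes NRF2, at -0.51.

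Adhesion genes rose in 7 of 19 tested cases and fell in 3, with 9 below the filter. The selectin ligand SELPLG stood at 6.67, 6.75 and 5.804 FPKM with EVI1 and 2.03, 2.77 and 2.72 FPKM in control, the hyaluronan receptor CD44 averaged 4.94 ± 0.780 and 2.01 ± 0.533 FPKM, and the laminin chain LAMB1, which overlaps DLD on the other strand, 9.49 ± 0.894 and 24.0 ± 1.67 FPKM and fell. Counts of the lists that follow lay near those shares or rest on few members, and are no result about the lists. Among 17 actin genes 6 rose and 7 fell (3 without EVI1 replicate 3), WAS of blood cells at 16.7 ± 2.96 FPKM with EVI1 and 51.6 ± 4.62 FPKM in control. Chromatin regulators counted 10 rises (6 without EVI1 replicate 3) and 9 falls of 31, with the deacetylases HDAC5 and HDAC6 at -0.90 and -0.80 and HDAC7, which overlaps SLC48A1 on the other strand, at 0.70. DNA repair counted 6 rises (3 without EVI1 replicate 1) and 7 falls of 23, with the mismatch repair genes PMS2 at -0.76 and MSH6 at 0.36. TGF-beta genes counted 3 rises and 5 falls of 15, NF-kB genes 3 (1 without EVI1 replicate 2 or 3) and 2 of 12, Wnt genes 3 and 1 (2 without EVI1 replicate 1 or control replicate 2) of 8, interferon-stimulated genes 2 and 2 of 7 and retinoid genes 3 and 3 of 7. Stem and progenitor genes counted 2 rises and 5 falls of 9.

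By chromosome, the median log2 fold change of tested genes ran from -0.165 on chromosome 4, where 19.6% of 92 genes rose and 39.1% fell, to 0.157 on chromosome 16, where 44.1% of 177 genes rose and 19.8% fell. No tested gene with a usable name lay on chromosome 21. The chromosome medians were not tested.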
